A study of Drosophila melanogaster with 72 samples.

Results

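Aminoacyl-tRNA synthetases are the enzymes that join each amino acid to its transfer RNA, the step that fixes the genetic code and supplies every ribosome with substrate. Animal cells keep largely separate sets for the cytosol and for mitochondria, whose ribosomes translate the few messages of the mitochondrial genome. Both sets are encoded in the nucleus, and the mitochondrial enzymes (suffix -m in the gene symbol) are imported after synthesis. In humans single genes supply the glycine and lysine enzymes of both compartments. In mammals many cytosolic synthetase genes are targets of the stress factor ATF4 (crc in flies), which is translated when charged tRNA runs short.

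The 33 genes described here are all fly genes whose FlyBase symbol is an amino acid code followed by RS, with or without -m, 18 cytosolic and 15 mitochondrial. They are 33 of the 23932 features counted in the Lpp[TS] lines and of the 13925 counted in each set of Lsp2 allele lines, and all 33 passed the filter on low counts in every comparison. The naming rule uses the symbol alone and no measured value, but it was set with earlier results of these data known. For 12 amino acids both sets have a member. GlnRS, GlyRS, HisRS, LysRS and ThrRS have no mitochondrial namesake, and GluRS-m, PheRS-m and ProRS-m have no cytosolic one of that name. Cytosolic glutamate and proline share the fused enzyme GluProRS, and the cytosolic phenylalanine enzyme is made of the subunits alpha-PheRS and beta-PheRS, which the naming rule leaves out.

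RNA was measured in whole female Drosophila melanogaster in 72 libraries, from total RNA and from the monosome and polysome fractions of a sucrose gradient run on the same ground flies. At 15 d the allele lines were Thor[2];Lsp2[A10], Thor[2];Lsp2[B14], Lsp2[A10] and Lsp2[B14], with 3 replicates each, and the Lsp2[A10] and Lsp2[B14] lines were also sampled at 2 to 3 d with 3 replicates each. The remaining lines, at 15 d with 2 replicates each, drove Lsp2 (Lpp[TS]>Lsp2) or Rheb (Lpp[TS]>Rheb), with Lpp[TS]>w1118 beside them. In fly notation the sign > joins a driver, here Lpp[TS], to what it drives, and w1118 is the line without a construct. The labels give no strain background, diet or tissue of the driver, and each library is a pool of whole flies of unstated number, so no tissue is resolved. Thor is the fly 4E-BP, a repressor of cap-dependent translation that mTORC1 switches off, Rheb is the small GTPase that activates mTORC1, and Lsp2 is a larval serum protein. The labels do not state which Lsp2 allele is a control, and both ages and both Thor[2] states carry one of them. Whether the replicates came from separate cultures of flies is not stated, so the p-values below measure the spread between these samples.

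Library totals ran from 15298423 to 39691305 counts in total RNA, from 5074901 to 21253221 in the monosome fraction and from 3134416 to 31312078 in the polysome fraction. The smallest polysome library was replicate 1 of Lsp2[A10] at 15 d. Replicate 3 of Lsp2[B14] at 15 d had the smallest monosome library and a polysome library of 5994318 counts. Both replicates enter the comparisons by age and with Thor[2]. In the lines named for them the driven genes were high: Lsp2 averaged 7147 ± 761 CPM (counts scaled to a common library total) in Lpp[TS]>Lsp2, against 4.86 ± 0.527 CPM in Lpp[TS]>w1118, and Rheb averaged 923 ± 62.0 CPM in Lpp[TS]>Rheb, against 126 ± 0.351 CPM in Lpp[TS]>w1118 (SD, n = 2). Lsp2 was also high in Lpp[TS]>Rheb, at 2423 ± 219 CPM (SD, n = 2). Thor RNA was not lower in the libraries labelled Thor[2], at 294 ± 60.9 CPM in Thor[2];Lsp2[A10] against 253 ± 35.4 CPM in Lsp2[A10], and 291 ± 29.3 CPM in Thor[2];Lsp2[B14] against 272 ± 20.9 CPM in Lsp2[B14] (SD, n = 3), and Thor[2] below refers to that label. Markers of male tissue summed to at most 16.9 CPM in any total RNA library. Eggshell markers summed to 34.4 to 131 CPM in the Lpp[TS] lines and to 6626 to 12614 CPM in the allele lines. All values are shares of a library, since no spike-in is recorded.

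The 33 genes are spread over the genome (BDGP6.54 annotation): 6 on 2L, 8 on 2R, 10 on 3L, 6 on 3R and 3 on X. Their summed exon lengths have a median of 2500 bases in the cytosolic set (1683 to 5453) and 2552 in the mitochondrial set (1482 to 4422). GluProRS (FBgn0005674, on 3R at 23952136 to 23958391, minus strand) is the longest and AsnRS-m (FBgn0034177, on 2R at 17001994 to 17003599, plus strand) the shortest. GluRS-m and TyrRS are direct neighbours on the minus strand of 3L, 171 bases apart. Exons of 17 members overlap no other gene. In 6 members over 200 exonic bases lie within another gene: AspRS and GluProRS under antisense RNAs (asRNA:CR45141 over 1448 bases and asRNA:CR46092 over 905), ArgRS-m opposite mRpS9, SerRS-m opposite Nagk, CysRS-m opposite CG13016, and HisRS on the strand of Bx. The strand setting of the counting is not given in the sources used here, so reads of those overlaps cannot be assigned with certainty.

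Per length, cytosolic synthetase RNAs were several-fold more abundant than mitochondrial ones. The median level of the cytosolic set was 46.2 CPM per kb of exon in total RNA, averaged over the 9 lines, and that of the mitochondrial set was 10.6, the 85.6 and 55.2 percentile of 13915 protein-coding genes. AspRS (FBgn0002069, on 2R at 12877004 to 12883168, plus strand), which charges aspartate, was highest at 98.5 CPM per kb, with LysRS, which charges lysine, next at 85.4. The lowest cytosolic levels were those of the methionine enzyme MetRS at 28.8 CPM per kb and the valine enzyme ValRS at 24.8. In the mitochondrial set PheRS-m (phenylalanine) led with 25.5 CPM per kb and AspRS-m followed with 23.4. MetRS-m at 4.97 and GluRS-m (glutamate) at 4.84 CPM per kb closed the order. The sets barely overlapped, since PheRS-m was the sole mitochondrial enzyme above a cytosolic one (ValRS).

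**Figure D1:**
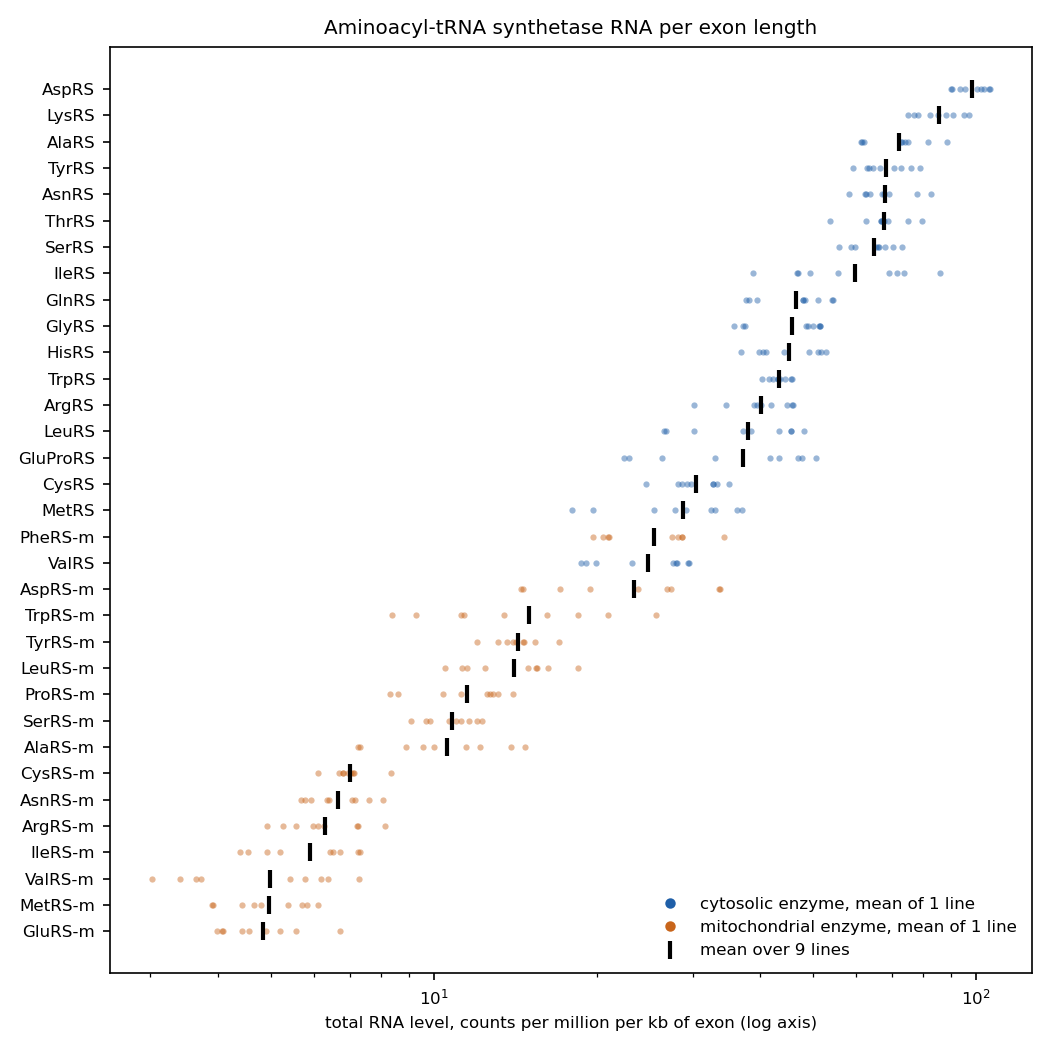
Total RNA level of the 33 synthetase genes in CPM per kb of exon (log axis), with a point for the mean of each of the 9 lines and a bar for the mean over lines. Cytosolic enzymes run from 24.8 to 98.5 and mitochondrial enzymes from 4.84 to 25.5 CPM per kb.

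Within every one of the 12 pairs that charge the same amino acid, the cytosolic RNA exceeded its mitochondrial counterpart in 9 of 9 lines, again per length. The ratio was smallest for leucine at 2.71 (LeuRS over LeuRS-m) and tryptophan at 2.89. It was largest for isoleucine at 10.1 and asparagine at 10.2. How much a gene varied over the 9 lines differed widely between members. TrpRS was steadiest, its highest line mean 1.14 times its lowest, with AspRS at 1.18 times. TrpRS-m ranged most, over 3.07 times, and ValRS-m over 2.41 times. Neighbours in the order often cannot be told apart: the line means of TyrRS, AsnRS and ThrRS, at 68.3, 67.9 and 67.6 CPM per kb, lie well within each other's range (59.3 to 78.7 for TyrRS).

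The share of an mRNA in the polysome fraction was read as the log2 ratio of its polysome level to its total RNA level in the same replicate, here set relative to the median gene of that replicate, which is 0. Synthetase mRNAs covered a wide span on this scale. PheRS-m at 0.86 and CysRS-m (cysteine) at 0.84 were highest in the mitochondrial set, above the median gene in 23 and 24 of 24 replicates. LysRS at 0.82 and HisRS (histidine) at 0.56 led the cytosolic set. The lowest were GluProRS at −0.82 and ArgRS (arginine) at −0.48 among cytosolic enzymes, and AspRS-m at −0.49 and ValRS-m at −0.30 among mitochondrial ones. AspRS, GlyRS (glycine) and ThrRS (threonine) were above the median gene in 0 of 24 replicates. Enzymes of both sets stood at either end of this order. Means of single lines ran widely around these values. They ran from 0.064 to 1.43 for PheRS-m, 0.48 to 1.40 for CysRS-m, 0.16 to 1.35 for LysRS and 0.0 to 1.04 for HisRS. At the low end they ran from −1.56 to −0.05 for GluProRS, −1.11 to 0.03 for ArgRS, −0.91 to 0.14 for AspRS-m and −0.72 to 0.02 for ValRS-m. The monosome to total ratio ran similarly, with PheRS-m at 0.96, LysRS at 0.81, ArgRS at −0.61 and GluProRS at −1.11. In polysome to monosome GluProRS stood at 0.29, above the median gene in 23 of 24 replicates. There ArgRS stood at 0.13, LysRS at 0.0025 and PheRS-m at −0.09. The order above thus sets polysomes against total RNA, not against monosomes.

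At 15 d most cytosolic synthetase RNAs were lower than at 2 to 3 d, while mitochondrial ones were called in both directions. Of the 18 cytosolic genes, 13 fell and 1 rose (adjusted p under 0.05, edgeR's quasi-likelihood test with Benjamini-Hochberg adjustment over all genes, 6 libraries against 6 over both Lsp2 alleles). Of the 15 mitochondrial genes, 5 rose and 3 fell, which is near the shares of all genes. Among all 10224 genes tested, 58.2% were called, 28.9% higher and 29.3% lower. The median log2 change was −0.24 for the cytosolic set and 0.18 for the mitochondrial set, beside −0.0004 for all genes. A lower level in whole flies can come from fewer cells of a type or from less RNA per cell, and these libraries cannot tell the one from the other.

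Asparagine, tyrosine and threonine enzymes had the smallest p-values among the cytosolic genes. AsnRS (FBgn0086443, on 2L at 19129469 to 19131954, minus strand) stood, in CPM scaled with TMM factors (trimmed mean of M-values, a correction for library composition computed within the libraries of each comparison), at 143, 130.2 and 145 CPM in Lsp2[A10] and 148, 139.9 and 146 CPM in Lsp2[B14] at 15 d, against 205, 211 and 198 CPM in Lsp2[A10] and 185, 193 and 204 CPM in Lsp2[B14] at 2 to 3 d. It fell by 0.49 on the log2 scale (−0.49 ± 0.05, SE; adjusted p 5.21e-06). All 6 older libraries lay below all 6 younger ones. TyrRS (FBgn0027080, on 3L at 16417349 to 16419302, minus strand) stood at 109, 101 and 103 CPM in Lsp2[A10] and 107, 97.3 and 102 CPM in Lsp2[B14] at 15 d, against 136, 136 and 132 CPM in Lsp2[A10] and 129, 127 and 138 CPM in Lsp2[B14] at 2 to 3 d, a change of −0.36 ± 0.05 (adjusted p 4.55e-05). ThrRS (FBgn0027081, on 2L at 12103751 to 12107170, plus strand) stood at 175, 176 and 195 CPM in Lsp2[A10] and 197, 179.5 and 187 CPM in Lsp2[B14] at 15 d, against 242, 248 and 231 CPM in Lsp2[A10] and 215, 230.4 and 239 CPM in Lsp2[B14] at 2 to 3 d, a change of −0.34 ± 0.05 (adjusted p 0.00017). In both, no older library reached the lowest younger one.

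The other cytosolic falls were smaller or similar in size: AlaRS (−0.35 ± 0.06), SerRS (−0.33 ± 0.06), IleRS (−0.31 ± 0.08), LysRS (−0.27 ± 0.05), AspRS (−0.26 ± 0.05), GlnRS (−0.26 ± 0.05), HisRS (−0.22 ± 0.06), CysRS (−0.17 ± 0.06), GlyRS (−0.15 ± 0.05) and ValRS (−0.13 ± 0.05), all log2 changes with SE. MetRS, the enzyme that also charges the initiator tRNA, rose by 0.15 ± 0.06. ArgRS (−0.085 ± 0.07), LeuRS (−0.13 ± 0.07), TrpRS (−0.05 ± 0.05) and GluProRS (−0.006 ± 0.07) did not pass the test. The libraries of the ages did not overlap for 9 of the 18 cytosolic genes, all lower at 15 d, where 17.4% of all genes were separated in that direction and 13.4% in the other.

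Among mitochondrial enzymes the valine, tryptophan and leucine genes led the rise. ValRS-m (FBgn0035942, on 3L at 8961274 to 8964769, minus strand) stood at 16.6, 17.7 and 18.7 CPM in Lsp2[A10] and 17.3, 18.0 and 16.3 CPM in Lsp2[B14] at 15 d, against 14.8, 12.1 and 10.3 CPM in Lsp2[A10] and 13.6, 12.7 and 11.7 CPM in Lsp2[B14] at 2 to 3 d. Its change was 0.48 ± 0.09 (adjusted p 0.000559), and the lowest older library lay above the highest younger one. TrpRS-m (FBgn0036763, on 3L at 17849727 to 17852453, plus strand) stood at 37.4, 37.8 and 37.4 CPM in Lsp2[A10] and 32.6, 32.97 and 31.8 CPM in Lsp2[B14] at 15 d, against 29.5, 29.7 and 27.8 CPM in Lsp2[A10] and 30.03, 30.3 and 28.2 CPM in Lsp2[B14] at 2 to 3 d, a change of 0.25 ± 0.05 (adjusted p 0.000711). LeuRS-m (FBgn0027085, on 3L at 4825853 to 4829038, plus strand) stood at 47.2, 45.9 and 44.9 CPM in Lsp2[A10] and 44.4, 45.5 and 41.8 CPM in Lsp2[B14] at 15 d, against 36.7, 37.9 and 34.2 CPM in Lsp2[A10] and 39.9, 39.2 and 38.7 CPM in Lsp2[B14] at 2 to 3 d, a change of 0.25 ± 0.05 (adjusted p 0.000777). For both, the ages were again fully separated. ArgRS-m (0.21 ± 0.07) and MetRS-m (0.19 ± 0.07) also rose. IleRS-m (−0.24 ± 0.08), TyrRS-m (−0.20 ± 0.06) and PheRS-m (−0.16 ± 0.06) fell, and TyrRS-m was the one of these 3 without overlap between the ages. The other 7 mitochondrial genes ran from −0.021 (CysRS-m) to 0.22 (ProRS-m) and were not called. For leucine, tryptophan and valine the enzymes of both compartments can be set side by side: LeuRS gave −0.13 ± 0.07, TrpRS −0.05 ± 0.05 and ValRS −0.13 ± 0.05 while their mitochondrial partners rose.

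**Figure D2:**
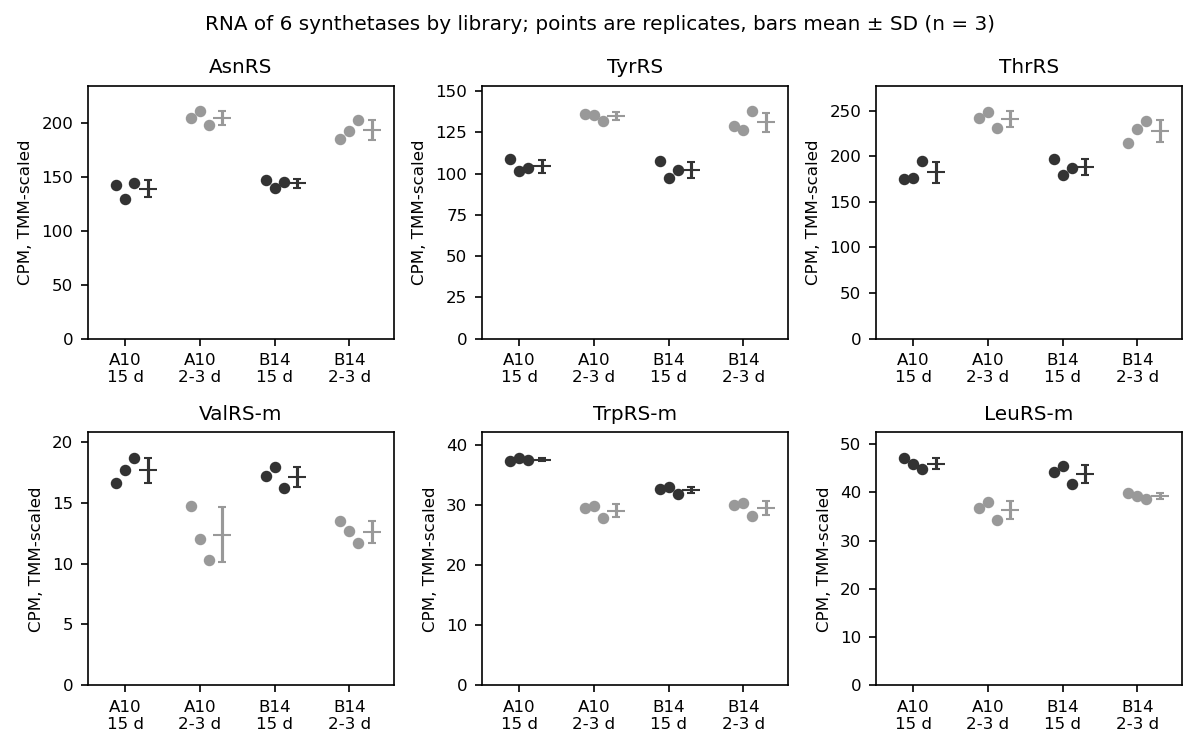
RNA of 6 synthetases in each total RNA library (points; CPM scaled with TMM factors, axes from 0) of Lsp2[A10] and Lsp2[B14] at 15 d and at 2 to 3 d, with mean ± SD (n = 3) beside each group. AsnRS, TyrRS and ThrRS are lower and ValRS-m, TrpRS-m and LeuRS-m higher in all 6 libraries at 15 d than in any at 2 to 3 d.

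Both alleles showed the cytosolic fall. Within Lsp2[A10], 10 cytosolic genes fell and 0 rose, where 44.6% of all genes were called, 20.8% higher and 23.8% lower. Within Lsp2[B14], 10 fell and 0 rose, where 38.1% were called, 18.3% higher and 19.8% lower. AsnRS gave a log2 change of −0.56 ± 0.07 in Lsp2[A10] and −0.43 ± 0.07 in Lsp2[B14], TyrRS −0.37 ± 0.07 and −0.36 ± 0.07, and ThrRS −0.40 ± 0.08 and −0.28 ± 0.08. The mitochondrial genes gave 5 higher and 1 lower in Lsp2[A10], and 1 higher and 0 lower in Lsp2[B14]. ValRS-m gave 0.52 ± 0.13 and 0.44 ± 0.13 in those alleles, TrpRS-m 0.37 ± 0.07 and 0.14 ± 0.07, and LeuRS-m 0.34 ± 0.07 and 0.16 ± 0.07. The test of the difference between the alleles called 0 of 33 (edgeR; 1 at an unadjusted p under 0.05, 0 with DESeq2), where 0.274% of all genes were called. Leaving out 1 replicate left 5 to 11 of the 33 genes called in Lsp2[B14], with 5 without 15 d replicate 2, 6 without 15 d replicate 3 or 2 to 3 d replicate 2 and 7 without 2 to 3 d replicate 3. In Lsp2[A10] it left 10 to 15, with 10 without replicate 2 of either age.

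The 2 ages come from separate count tables, so age and table cannot be told apart. Scaling to library totals in place of TMM factors moved the median of all genes to 0.13 and the split to 1 higher and 7 lower in the cytosolic set and 11 higher and 0 lower in the mitochondrial set, and RLE factors gave 1 higher and 13 lower and 8 higher and 2 lower. The shares of all genes called with library totals or RLE factors are not given here, so these counts stand without a background. With TMM factors 28.9% of all genes were called higher and 29.3% lower by age. Muscle markers moved with age far more than any synthetase. Their sum was 1183 to 1515 CPM at 15 d and 7726 to 10247 CPM at 2 to 3 d, and 6 of 6 fell, led by Act88F, a flight muscle actin, at −6.35 ± 0.12 (adjusted p 4.16e-13). Neuron markers summed to 127 to 184 CPM at 15 d and 151 to 254 CPM at 2 to 3 d, and 3 of 4 fell. Their part in the synthetase changes was not tested.

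**Figure D3:**
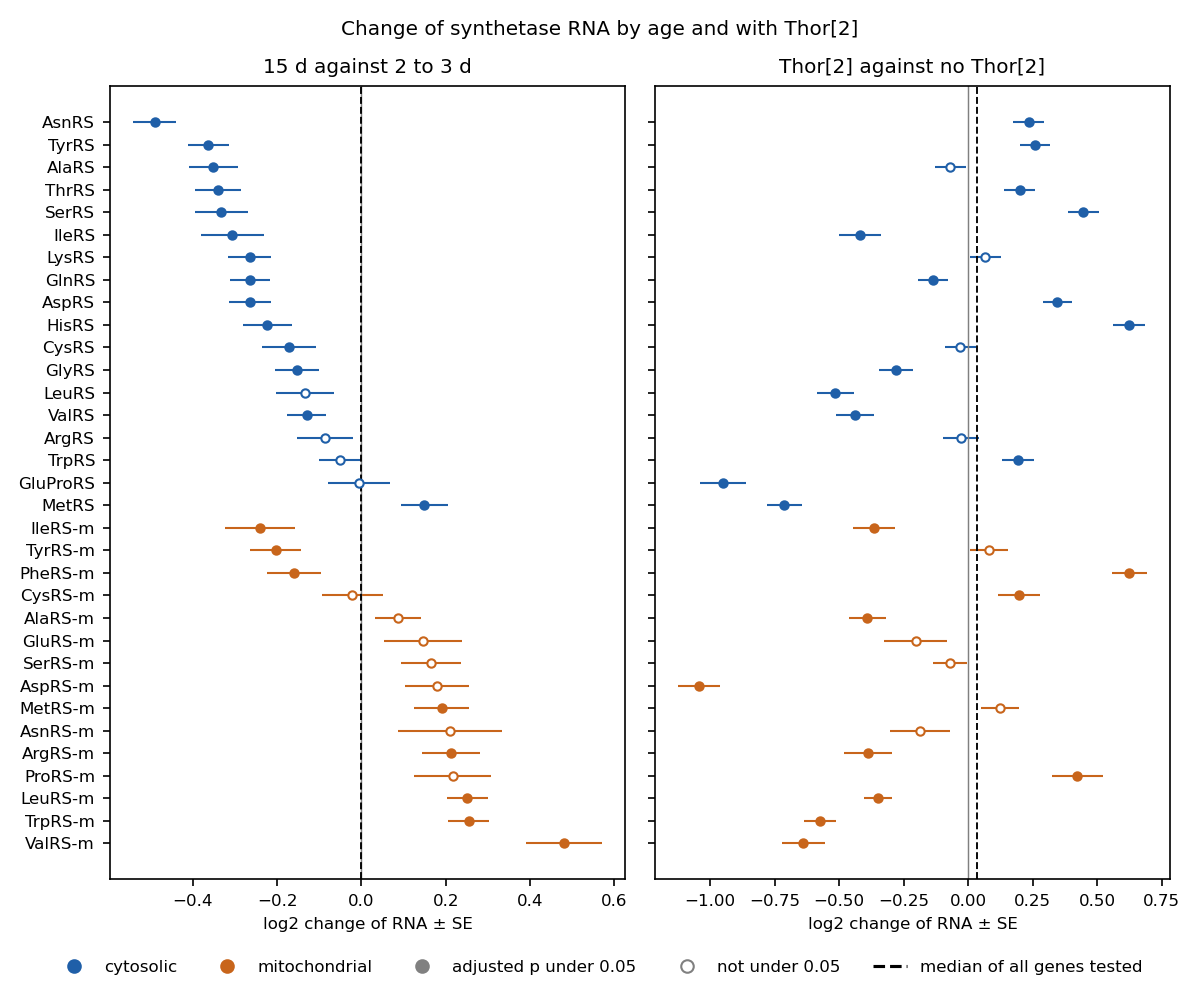
Log2 change of total RNA of the 33 synthetase genes (± SE; 6 libraries against 6), at 15 d against 2 to 3 d on the left and with Thor[2] against no Thor[2] on the right, filled where the adjusted p was under 0.05, with the median of all genes dashed. By age 13 cytosolic points are called below 0 and 5 mitochondrial points above it (7 and 11 when scaled to library totals), and with Thor[2] both sets hold called points on either side.

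At 15 d, many cytosolic synthetase mRNAs also had a higher polysome to total ratio than at 2 to 3 d. Of 18 cytosolic genes 9 rose and 0 fell in this ratio, and of 15 mitochondrial genes 1 rose and 2 fell, where 46.7% of 10514 genes were called. More genes were called higher than lower throughout, 28.8% against 17.9%, and the median of all genes was 0.13, beside 0.21 for the cytosolic and −0.057 for the mitochondrial set. AlaRS (FBgn0027094, on 2L at 8378262 to 8381764, minus strand), the alanine enzyme, had log2 ratios (TMM-scaled polysome CPM over TMM-scaled total CPM of the same replicate) of −0.11, 0.26 and 0.26 in Lsp2[A10] and 0.012, 0.27 and 0.072 in Lsp2[B14] at 15 d, against −0.87, −0.53 and −0.53 in Lsp2[A10] and −0.88, −0.57 and −0.54 in Lsp2[B14] at 2 to 3 d. It rose by 0.79 ± 0.12 (adjusted p 2.47e-05), with no overlap between the ages. ThrRS had ratios of −0.37, −0.024 and −0.13 in Lsp2[A10] and −0.34, −0.074 and −0.26 in Lsp2[B14] at 15 d, against −0.94, −0.73 and −0.78 in Lsp2[A10] and −0.81, −0.64 and −0.78 in Lsp2[B14] at 2 to 3 d, a change of 0.59 ± 0.10 (adjusted p 9.82e-05), again without overlap. SerRS (0.78 ± 0.16), AsnRS (0.54 ± 0.10), CysRS (0.50 ± 0.11), GlyRS (0.44 ± 0.11), ArgRS (0.39 ± 0.12), LysRS (0.31 ± 0.10) and ValRS (0.26 ± 0.08) rose as well. Of these 9 genes all but ArgRS were also lower in total RNA at 15 d, which is the denominator of the ratio. In CPM of library totals the polysome levels of AsnRS and LysRS changed by 0.02 and 0.03 on the log2 scale. Those of AlaRS, SerRS, CysRS, ArgRS, GlyRS, ThrRS and ValRS changed by 0.41, 0.44, 0.30, 0.29, 0.28, 0.22 and 0.11.

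Of the mitochondrial enzymes TyrRS-m (FBgn0035064, on 2R at 24781726 to 24783500, minus strand) rose, with ratios of 0.36, 0.37 and 0.67 in Lsp2[A10] and 0.32, 0.62 and 0.54 in Lsp2[B14] at 15 d, against −0.21, −0.22 and −0.12 in Lsp2[A10] and −0.34, 0.12 and 0.25 in Lsp2[B14] at 2 to 3 d, a change of 0.55 ± 0.13 (adjusted p 0.00126). The ages were separated, the lowest older ratio lying above the highest younger one. ProRS-m, the proline enzyme (FBgn0027082, on 3L at 2650161 to 2651850, minus strand), fell, with ratios of 0.41, 0.55 and 0.96 in Lsp2[A10] and 0.72, 1.19 and 0.80 in Lsp2[B14] at 15 d, against 1.004, 1.01 and 1.40 in Lsp2[A10] and 1.44, 1.43 and 1.65 in Lsp2[B14] at 2 to 3 d, a change of −0.52 ± 0.15 (adjusted p 0.00713). Its groups overlapped, since 1 ratio of Lsp2[B14] at 15 d lay above 2 of Lsp2[A10] at 2 to 3 d. TrpRS-m fell by 0.24 (−0.24 ± 0.08). With library totals the median of all genes was −0.025 and the splits were 6 higher and 4 lower (cytosolic) and 1 higher and 5 lower (mitochondrial), and with RLE factors they were 8 higher and 2 lower and 1 higher and 3 lower. These splits, too, stand without a share of all genes. Within Lsp2[A10] 10 of 33 genes were called (29.7% of all genes) and within Lsp2[B14] 7 (30.0%), and leaving out 1 replicate left 4 to 11 and 4 to 7. The lowest counts came without Lsp2[A10] 15 d replicate 2 or 3 (5 each) or 2 to 3 d replicate 2 (4), and without Lsp2[B14] 15 d replicate 2 or 2 to 3 d replicate 3 (4 each). In Lsp2[A10] AlaRS gave 0.80 ± 0.17 and ThrRS 0.66 ± 0.15, and in Lsp2[B14] they gave 0.78 ± 0.17 and 0.52 ± 0.15. The difference between alleles was called for 0 of 33 genes (edgeR; 1 at an unadjusted p under 0.05, 0 with DESeq2; 0.0% of all genes called).

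Between the ribosome fractions themselves, the polysome to monosome ratio rose with age for 6 cytosolic genes and fell for 0, and it rose for 3 and fell for 2 of the mitochondrial genes, where 42.5% of all genes were called (20.3% higher and 22.3% lower), all counts with TMM factors. Scaling to library totals turned the splits to 1 higher and 7 lower and 1 higher and 4 lower. The share of all genes called with library totals is not given here, so these splits stand without a background. The glutamine enzyme GlnRS (FBgn0027090, on 3R at 25263267 to 25265721, minus strand) had log2 ratios of −0.15, 0.25 and 0.49 in Lsp2[A10] and 0.34, 0.52 and 0.19 in Lsp2[B14] at 15 d, against −0.21, −0.039 and −0.38 in Lsp2[A10] and −0.42, −0.70 and −0.23 in Lsp2[B14] at 2 to 3 d, a change of 0.61 ± 0.13 (adjusted p 0.000809). Replicate 1 of Lsp2[A10] at 15 d, which has the smallest polysome library (3134416 counts), lay among the younger values. ArgRS (FBgn0027093, on X at 15841769 to 15844145, minus strand) had ratios of 0.16, 0.0024 and 0.22 in Lsp2[A10] and 0.42, 0.38 and 0.31 in Lsp2[B14] at 15 d, against −0.22, −0.32 and −0.24 in Lsp2[A10] and −0.27, −0.12 and 0.043 in Lsp2[B14] at 2 to 3 d, a change of 0.43 ± 0.12 (adjusted p 0.00544), and here too 1 older ratio lay below the highest younger one. AspRS-m (FBgn0051739, on 2L at 16827078 to 16832093, plus strand) fell by 0.61 (−0.61 ± 0.12, adjusted p 0.000553), with ratios of −0.31, −0.19 and −0.45 in Lsp2[A10] and −0.44, −0.47 and −0.31 in Lsp2[B14] at 15 d, against 0.35, 0.21 and 0.34 in Lsp2[A10] and 0.42, 0.27 and −0.10 in Lsp2[B14] at 2 to 3 d. PheRS-m (FBgn0275436, on 2R at 13968308 to 13969902, plus strand) rose by 0.58 ± 0.13 (adjusted p 0.00121), with ratios of −0.19, −0.18 and 0.22 in Lsp2[A10] and −0.22, −0.23 and −0.22 in Lsp2[B14] at 15 d, against −0.70, −0.40 and −0.64 in Lsp2[A10] and −0.82, −1.04 and −0.62 in Lsp2[B14] at 2 to 3 d. AspRS-m and PheRS-m did not overlap between the ages. AsnRS (0.25 ± 0.10), GlyRS (0.49 ± 0.14), CysRS (0.40 ± 0.11), LeuRS (0.40 ± 0.11), AlaRS-m (0.32 ± 0.13) and TyrRS-m (0.54 ± 0.15) rose, and TrpRS-m (−0.59 ± 0.16) fell.

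The polysome to monosome ratio also ran with transcript length. With library totals the median of all genes was −0.36, against −0.069 with TMM factors, and ArgRS gave 0.14 (adjusted p 0.363). Across the 33 genes the change had a Spearman correlation of −0.42 with exon length, and of −0.60 across all 10315 genes. These points share the same libraries and are not independent. AspRS-m, the longest mitochondrial RNA, gave −0.20 with the length trend of each library removed (adjusted p 0.201) and was not called. Within 1 allele the calls were 1 of 33 in Lsp2[A10] (4.87% of all genes) and 9 in Lsp2[B14] (32.4%), and with the replicate as a block, which pairs the fractions of 1 powder, they were 5 and 14. Leaving out 1 replicate gave 0 to 2 in Lsp2[A10] and 3 to 11 in Lsp2[B14], the lowest 3 without 15 d replicate 2 or 2 to 3 d replicate 2, and 5 without 15 d replicate 1. None of the 33 differed between the alleles (0 called by edgeR; 1 at an unadjusted p under 0.05, 0 with DESeq2; 0.0% of all genes).

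**Figure D4:**
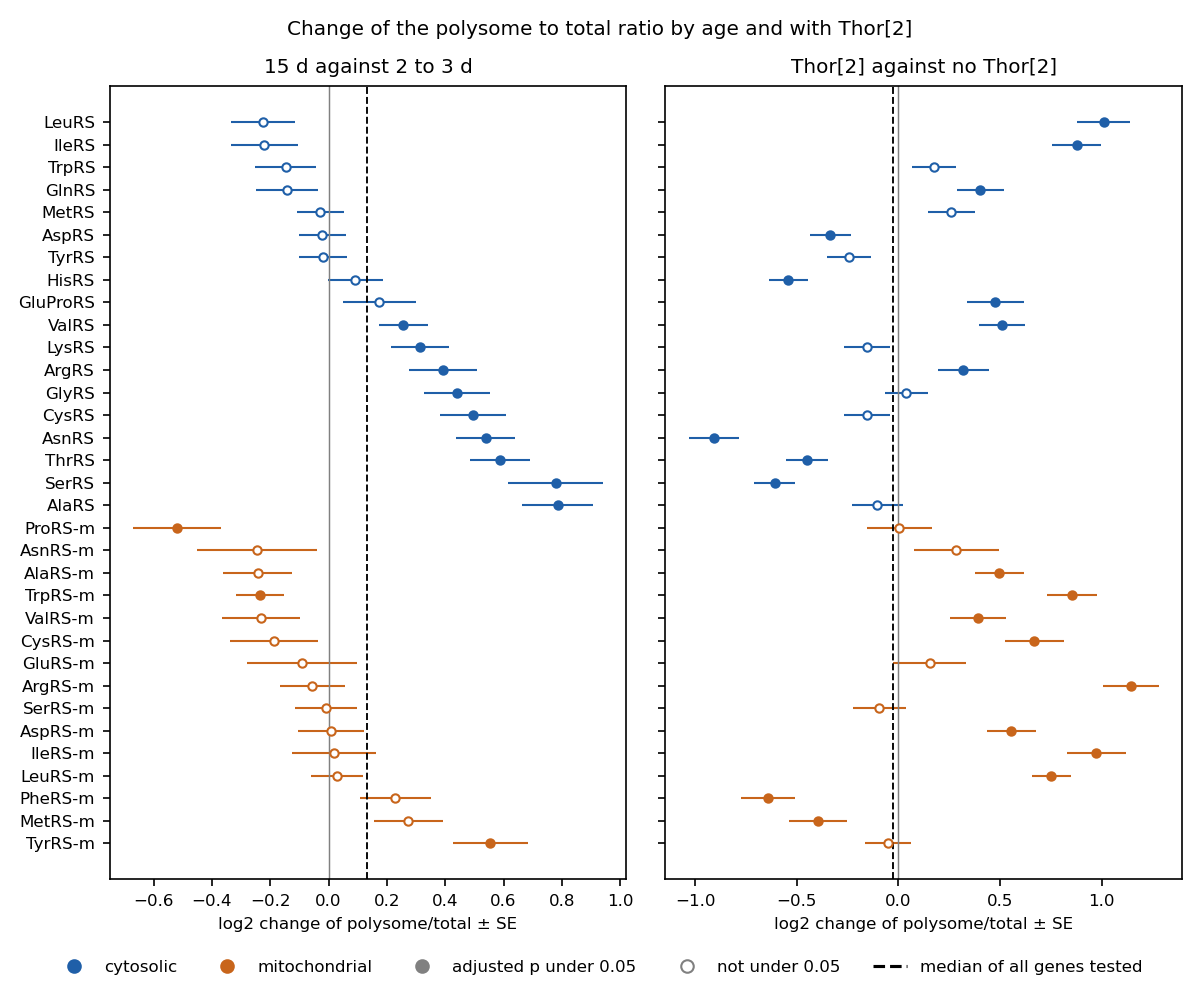
Log2 change of the polysome to total ratio of the 33 synthetase genes (± SE; 6 replicates against 6), at 15 d against 2 to 3 d on the left and with Thor[2] against no Thor[2] on the right, filled where the adjusted p was under 0.05, with the median of all genes dashed. By age the 9 called cytosolic points all lie above 0 (6 above and 4 below when scaled to library totals), and with Thor[2] the points run from −0.91 (AsnRS) to 1.14 (ArgRS-m).

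In the libraries labelled Thor[2], synthetase RNAs moved in both directions, and the direction ran with the length of the transcript. Of 18 cytosolic genes 7 rose and 7 fell, and of 15 mitochondrial genes 3 rose and 7 fell. With 76.8% of all 10354 genes called, 39.6% higher and 37.2% lower, a call is the usual state of a gene in this comparison. Scaled to library totals, which moved the median of all genes to −0.14, the splits were 3 higher and 10 lower and 2 higher and 10 lower. No share of all genes is given here for that scaling. With TMM factors the median log2 change was −0.03 in the cytosolic set, −0.20 in the mitochondrial set and 0.035 over all genes. The libraries did not overlap for 5 cytosolic genes higher and 6 lower, and for 1 mitochondrial gene higher and 6 lower, where 27.1% and 27.5% of all genes were so separated. The 15 d libraries of Lsp2[A10] and Lsp2[B14] are the comparison group here and the older group in the comparison of ages, so the results of both share them.

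GluProRS, the fused glutamate and proline enzyme, stood at 132, 135 and 134 CPM in Thor[2];Lsp2[A10] and 106, 123 and 156 CPM in Thor[2];Lsp2[B14], against 224, 234 and 267 CPM in Lsp2[A10] and 249, 285 and 259.5 CPM in Lsp2[B14]. It fell by 0.95 on the log2 scale (−0.95 ± 0.09, adjusted p 3.24e-07). MetRS (FBgn0034401, on 2R at 18846858 to 18850599, minus strand) stood at 67.5, 65.2 and 63.5 CPM in Thor[2];Lsp2[A10] and 59.3, 74.6 and 77.0 CPM in Thor[2];Lsp2[B14], against 119, 114 and 118 CPM in Lsp2[A10] and 109.5, 106 and 102 CPM in Lsp2[B14], a change of −0.71 ± 0.07 (adjusted p 4.26e-07). HisRS (FBgn0027087, on X at 18515428 to 18520445, plus strand) went the other way, at 166, 174 and 145 CPM in Thor[2];Lsp2[A10] and 156, 161 and 152 CPM in Thor[2];Lsp2[B14], against 108, 104 and 104 CPM in Lsp2[A10] and 102, 96.3 and 105 CPM in Lsp2[B14], a rise of 0.62 ± 0.06 (adjusted p 5.14e-07). In these 3 genes no library labelled Thor[2] fell within the range of the others. The other cytosolic falls were LeuRS (−0.52 ± 0.07), ValRS (−0.44 ± 0.07), IleRS (−0.42 ± 0.08), GlyRS (−0.28 ± 0.07) and GlnRS (−0.14 ± 0.06). The other rises were SerRS (0.45 ± 0.06), AspRS (0.34 ± 0.06), TyrRS (0.26 ± 0.06), AsnRS (0.23 ± 0.06), ThrRS (0.20 ± 0.06) and TrpRS (0.19 ± 0.06). AlaRS, ArgRS, CysRS and LysRS, from −0.07 to 0.066, were not called.

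AspRS-m had the largest RNA change of the 33 genes with Thor[2]. It stood at 71.2, 65.4 and 68.2 CPM in Thor[2];Lsp2[A10] and 58.5, 64.2 and 80.7 CPM in Thor[2];Lsp2[B14], against 124, 148 and 143 CPM in Lsp2[A10] and 142, 139.6 and 145 CPM in Lsp2[B14], a fall of 1.04 on the log2 scale (−1.04 ± 0.08, adjusted p 7.23e-08). TrpRS-m stood at 23.6, 22.3 and 20.5 CPM in Thor[2];Lsp2[A10] and 22.5, 24.8 and 25.3 CPM in Thor[2];Lsp2[B14], against 36.3, 37.9 and 37.2 CPM in Lsp2[A10] and 31.6, 32.5 and 31.9 CPM in Lsp2[B14], a change of −0.58 ± 0.06 (adjusted p 1.08e-06). PheRS-m stood at 44.0, 45.3 and 48.7 CPM in Thor[2];Lsp2[A10] and 50.7, 42.7 and 39.6 CPM in Thor[2];Lsp2[B14], against 30.8, 28.4 and 30.3 CPM in Lsp2[A10] and 28.4, 29.1 and 28.9 CPM in Lsp2[B14], a rise of 0.62 ± 0.07 (adjusted p 1.4e-06). All 3 were separated between the groups. ValRS-m (−0.64 ± 0.08), AlaRS-m (−0.39 ± 0.07), ArgRS-m (−0.39 ± 0.09), IleRS-m (−0.36 ± 0.08) and LeuRS-m (−0.35 ± 0.05) also fell, and ProRS-m (0.42 ± 0.10) and CysRS-m (0.20 ± 0.08) rose. AsnRS-m, GluRS-m, MetRS-m, SerRS-m and TyrRS-m ran from −0.20 to 0.12 and were not called. Within Lsp2[A10] 22 of 33 genes were called (66.8% of all genes), and within Lsp2[B14] 20 (69.2%; 13 with the length trend removed). GluProRS gave −0.85 ± 0.12 in Lsp2[A10] and −1.04 ± 0.13 in Lsp2[B14], HisRS 0.62 ± 0.09 and 0.63 ± 0.09, AspRS-m −1.02 ± 0.11 and −1.07 ± 0.11, and PheRS-m 0.62 ± 0.10 and 0.62 ± 0.10. MetRS (−0.84 ± 0.10 and −0.59 ± 0.10) and TrpRS-m (−0.75 ± 0.09 and −0.40 ± 0.09) differed more. The test of the difference called 0 of 33 genes (edgeR; 2 at an unadjusted p under 0.05, 0 with DESeq2; 4.1% of all genes called).

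With Thor[2] the RNA change ran with length, with called exceptions on both sides: HisRS (0.62 ± 0.06) and ThrRS (0.20 ± 0.06) rose although longer than the middle member, and TrpRS-m (−0.58 ± 0.06) and GlnRS (−0.14 ± 0.06) fell although shorter. The Spearman correlation of the log2 change with exon length was −0.66 across the 33 genes, and −0.76 across 10345 genes of all kinds. Both are descriptions over genes of the same 12 libraries. The 16 members shorter than the middle one had a median of 0.14 and the 16 longer ones −0.39, and all genes split at the same length gave 0.46 and −0.61. An offset that removes the length trend of each library, an alternative chosen after seeing the data, left 17 of 33 members called, 7 higher and 1 lower in the cytosolic set and 3 higher and 6 lower in the mitochondrial set, and 11 of the 17 were among the 24 called without it, where 65.7% of all genes were called with the offset. GluProRS, the longest, then gave −0.14 (adjusted p 0.0514) and was not called. MetRS at −0.28, AspRS-m at −0.38, PheRS-m at 0.29, HisRS at 0.91 and TrpRS-m at −0.43 kept their calls, and MetRS-m, a long RNA that lay off the trend, reached 0.78 (adjusted p 2.15e-06) against 0.12 ± 0.07 without the offset.

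**Figure D5:**
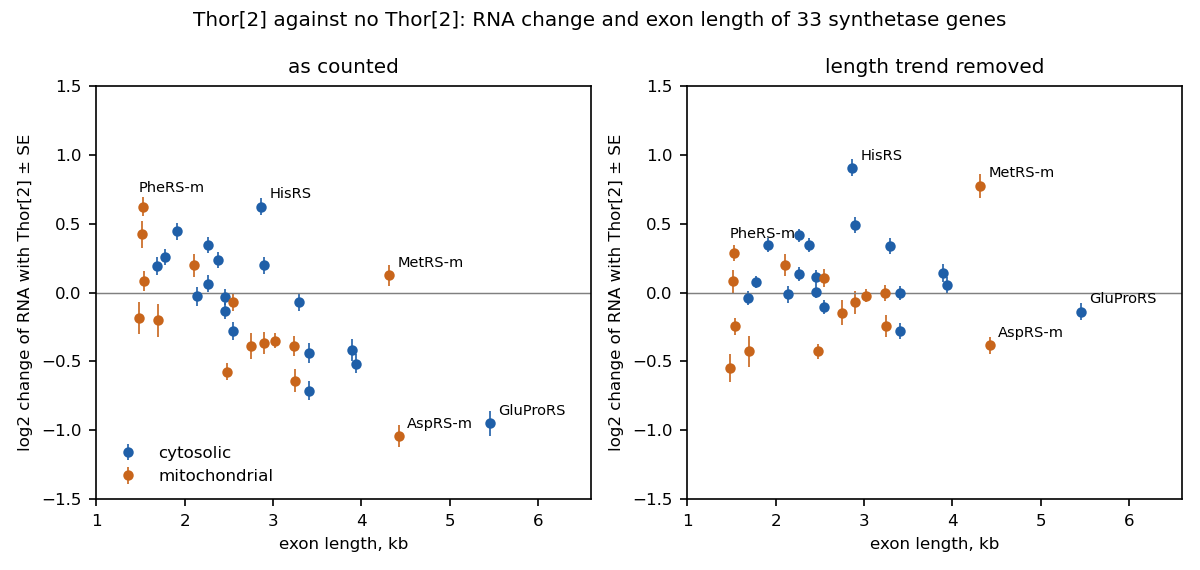
Log2 change of RNA (± SE) with Thor[2] against exon length in kb for the 33 synthetase genes, as counted on the left and with the length trend of each library removed on the right. On the left GluProRS (−0.95) and AspRS-m (−1.04), the longest, lie lowest, and on the right they lie at −0.14 and −0.38 while HisRS is at 0.91.

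In mammals 8 cytosolic enzymes (GluProRS, IleRS, LeuRS, MetRS, GlnRS, LysRS, ArgRS and AspRS) form one multisynthetase complex. It is held together by the scaffold proteins AIMP1, AIMP2 and AIMP3, whose RNAs all rose with Thor[2], by 0.72 ± 0.08, 0.98 ± 0.08 and 0.95 ± 0.08 (adjusted p 1.71e-06, 6.6e-08 and 1.49e-07). Scaffold RNAs summed to 218 to 254 CPM in the Thor[2] lines, against 124 to 152 CPM in the lines without it at 15 d. With the length trend removed 1 higher and 0 lower of the 3 scaffold genes were called. The enzymes named did not share that rise. Of these 8, 1 was called higher and 5 lower (median −0.28), where 39.6% and 37.2% of all genes were. The other 10 cytosolic enzymes gave 6 higher and 2 lower (median 0.20). With the length trend removed the splits were 2 higher and 1 lower of 8, and 5 higher and 0 lower of 10. Tissue markers shifted too, where 39.6% of all genes were called higher and 37.2% lower (65.7% called with the length trend removed). Germline markers summed to 585 to 822 CPM with Thor[2] and 1370 to 1519 CPM without (8 of 9 fell, 0 rose), neuron markers to 66.0 to 107 and 127 to 184 CPM (4 of 4 fell), midgut markers to 8497 to 10134 and 5342 to 8042 CPM (5 of 6 rose), and muscle markers to 1637 to 2383 and 1183 to 1515 CPM (5 of 6 rose, 1 fell). With the length trend removed these 4 lists gave 0 higher and 7 lower, 1 higher and 1 lower, 3 higher and 0 lower and 6 higher and 0 lower. Fat body markers summed to 31768 to 33777 CPM in Thor[2];Lsp2[A10], against 17691 to 26756 CPM in Lsp2[A10], and to 23625 to 24753 CPM in Thor[2];Lsp2[B14], against 22209 to 23985 CPM in Lsp2[B14] (4 higher and 1 lower of 6 over both alleles, 3 higher and 2 lower with library totals). Eggshell markers gave 9 higher and 2 lower of 11, and 0 higher and 5 lower with the trend removed. Their part in the synthetase changes was not tested.

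The polysome to total ratio of synthetase mRNAs changed with Thor[2] as well, upwards for most of the mitochondrial enzymes. In the mitochondrial set 8 genes rose and 2 fell, and in the cytosolic set 6 rose and 5 fell, where 56.2% of 11062 genes were called, 25.9% higher and 30.3% lower. The median change was 0.39 in the mitochondrial set, −0.032 in the cytosolic set and −0.027 over all genes. ArgRS-m (FBgn0037526, on 3R at 7887045 to 7890150, plus strand) had log2 ratios of 1.24, 1.39 and 1.73 in Thor[2];Lsp2[A10] and 1.27, 0.62 and 0.67 in Thor[2];Lsp2[B14], against −0.24, −0.13 and 0.042 in Lsp2[A10] and 0.063, 0.16 and 0.0079 in Lsp2[B14], a change of 1.14 ± 0.14 (adjusted p 1.97e-07). LeuRS-m had ratios of −0.027, 0.24 and 0.11 in Thor[2];Lsp2[A10] and 0.0056, 0.012 and −0.061 in Thor[2];Lsp2[B14], against −0.65, −0.70 and −0.69 in Lsp2[A10] and −0.70, −0.81 and −0.67 in Lsp2[B14], a change of 0.75 ± 0.10 (adjusted p 4.03e-07). Neither overlapped between the groups. IleRS-m (0.97 ± 0.14), TrpRS-m (0.85 ± 0.12), CysRS-m (0.67 ± 0.15), AspRS-m (0.56 ± 0.12), AlaRS-m (0.50 ± 0.12) and ValRS-m (0.39 ± 0.14) rose too, while PheRS-m (−0.64 ± 0.13) and MetRS-m (−0.40 ± 0.14) fell. All the risers but CysRS-m were also called lower in total RNA, the denominator of this ratio. In CPM of library totals their polysome levels changed by 0.58 (ArgRS-m), 0.20 (LeuRS-m), 0.44 (IleRS-m) and 0.07 (TrpRS-m) on the log2 scale. Those of CysRS-m, AspRS-m, AlaRS-m and ValRS-m changed by 0.71, −0.68, −0.08 and −0.44.

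Among cytosolic enzymes LeuRS (FBgn0284253, on 2L at 3510328 to 3514656, minus strand) had ratios of 0.49, 0.69 and 0.54 in Thor[2];Lsp2[A10] and 0.29, 0.29 and 0.69 in Thor[2];Lsp2[B14], against −0.30, −0.37 and −0.43 in Lsp2[A10] and −0.70, −0.70 and −0.49 in Lsp2[B14], a rise of 1.01 ± 0.13 (adjusted p 5.77e-07). AsnRS had ratios of −0.14, −0.11 and −0.0089 in Thor[2];Lsp2[A10] and 0.50, 0.31 and −0.14 in Thor[2];Lsp2[B14], against 0.79, 0.999 and 1.10 in Lsp2[A10] and 0.87, 1.21 and 0.88 in Lsp2[B14], a fall of 0.91 (−0.91 ± 0.12, adjusted p 1.19e-06). Both were separated between the groups, in opposite directions. IleRS (0.88 ± 0.12), ValRS (0.51 ± 0.11), GluProRS (0.48 ± 0.14), GlnRS (0.40 ± 0.12) and ArgRS (0.32 ± 0.13) rose, and SerRS (−0.61 ± 0.10), HisRS (−0.54 ± 0.10), ThrRS (−0.45 ± 0.10) and AspRS (−0.34 ± 0.10) fell. Total RNA is the denominator of this ratio, so a gene that is lower in total RNA is higher in the ratio when its polysome level stays. In CPM of library totals the polysome levels of the cytosolic risers changed by 0.29 (LeuRS), 0.26 (IleRS) and 0.08 (ArgRS). Those of GlnRS, ValRS and GluProRS changed by 0.075, −0.13 and −0.68. By length the ratio ran opposite to the RNA, with Spearman correlations of 0.40 over the 33 genes and 0.60 over all genes. Without the length trend 21 members were called (46.3% of all genes), and LeuRS gave 0.54, AsnRS −0.94, ArgRS-m 0.99 and LeuRS-m 0.52. Within Lsp2[A10] 18 of 33 genes were called (41.0% of all genes) and within Lsp2[B14] 17 (43.6%; 11 without Lsp2[B14] replicate 1). In Lsp2[A10] LeuRS gave 0.94 ± 0.19, AsnRS −1.06 ± 0.18, ArgRS-m 1.52 ± 0.19 and LeuRS-m 0.79 ± 0.13. In Lsp2[B14] these were 1.08 ± 0.19, −0.75 ± 0.18, 0.76 ± 0.19 and 0.71 ± 0.13, and the difference was called for 0 of 33 genes (edgeR; 2 at an unadjusted p under 0.05, 0 with DESeq2; 0.0% of all genes).

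In the polysome to monosome ratio 0 of 33 genes were called with Thor[2] (edgeR; 5 at an unadjusted p under 0.05, 1 with DESeq2), where 1.15% of 11619 genes were. ArgRS-m came closest. Its log2 ratios were 0.75, 0.73 and 0.62 in Thor[2];Lsp2[A10] and 0.055, 0.16 and 0.49 in Thor[2];Lsp2[B14], against −0.38, −0.22 and −0.33 in Lsp2[A10] and −0.15, 0.029 and −0.033 in Lsp2[B14], and every value with Thor[2] exceeded every value without. The change of 0.62 ± 0.17 had an adjusted p of 0.0587. It passed with the replicate number as a block (0.64, adjusted p 0.016), with DESeq2 (0.56, adjusted p 0.0399) and without Thor[2];Lsp2[A10] replicate 3 (0.61, adjusted p 0.0491). Within Lsp2[A10] 0 of 33 genes were called (0.258% of all genes), 1 with the block and 1 with DESeq2, and ArgRS-m gave 0.98 ± 0.23, and within Lsp2[B14] 0 were called (0.439%) and it gave 0.27 ± 0.24. Between the alleles 0 of 33 genes differed (edgeR; 4 at an unadjusted p under 0.05, 0 with DESeq2; 0.0% of all genes).

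Between Lsp2[A10] and Lsp2[B14] no synthetase RNA passed the test at either age or with Thor[2]. At 15 d 0 of 33 were called (edgeR; 2 at an unadjusted p under 0.05, 0 with DESeq2), where 2.21% of all genes were. The smallest p was that of TrpRS-m, at 36.3, 37.9 and 37.2 CPM in Lsp2[A10] and 31.6, 32.5 and 31.9 CPM in Lsp2[B14], a difference of 0.22 ± 0.08 (adjusted p 0.317). With Thor[2], 0 of 33 were called (1 unadjusted, 0 with DESeq2; 4.16% of all genes), and SerRS-m (FBgn0021750, on 3R at 15340667 to 15343218, plus strand) stood at 24.5, 24.9 and 24.9 CPM in Thor[2];Lsp2[A10] and 29.8, 31.7 and 29.1 CPM in Thor[2];Lsp2[B14] (−0.29 ± 0.09, adjusted p 0.120). SerRS-m was called at −0.33 with the length trend removed (adjusted p 0.0456). Both genes separated 3 replicates from 3. At 2 to 3 d, 0 of 33 were called (0 unadjusted, 0 with DESeq2; 0.332% of all genes), and IleRS (FBgn0027086, on 3L at 22288665 to 22292810, plus strand) stood at 378, 323 and 298 CPM in Lsp2[A10] and 289, 289.6 and 283 CPM in Lsp2[B14] (0.21 ± 0.10, adjusted p 0.941). Without Lsp2[A10] replicate 1 this difference was 0.11.

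For polysome to total, 0 of 33 genes were called at 15 d (edgeR; 1 unadjusted, 0 with DESeq2; 0.0% of all genes), with Thor[2] (3 unadjusted, 0 with DESeq2; 0.0904%) and at 2 to 3 d (4 unadjusted, 1 with DESeq2; 0.0687%). CysRS had log2 ratios of 0.27, 0.46 and 0.34 in Lsp2[A10] and −0.013, 0.16 and −0.066 in Lsp2[B14] at 15 d (0.33 ± 0.16, adjusted p 0.722). ArgRS-m had 1.24, 1.39 and 1.73 in Thor[2];Lsp2[A10] and 1.27, 0.62 and 0.67 in Thor[2];Lsp2[B14] (0.59 ± 0.19, adjusted p 0.293). CysRS was separated between the alleles and ArgRS-m was not. GluProRS had −1.18, −0.99 and −0.94 in Lsp2[A10] and −1.60, −1.74 and −1.41 in Lsp2[B14] at 2 to 3 d, without overlap, and its difference of 0.54 ± 0.15 had an adjusted p of 0.0969. That value passed with the replicate block (0.54, adjusted p 0.0144), with DESeq2 (0.51, adjusted p 0.0326) and without Lsp2[B14] replicate 1 (0.53, adjusted p 0.0443), and was 0.30 with the length trend removed.

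For polysome to monosome the counts between alleles were again 0 of 33 at 15 d (edgeR; 1 unadjusted; 0.0% of all genes), with Thor[2] (6 unadjusted; 0.25%) and at 2 to 3 d (0 unadjusted; 0.0%), and 0 with DESeq2 in each. The smallest p-values belonged to IleRS at 15 d (0.41 ± 0.20, adjusted p 0.690), MetRS with Thor[2] (0.69 ± 0.25, adjusted p 0.109) and ArgRS-m at 2 to 3 d (0.42 ± 0.20, adjusted p 1.0). MetRS had ratios of 1.18, 0.32 and 0.22 in Thor[2];Lsp2[A10] and 0.14, −0.29 and −0.48 in Thor[2];Lsp2[B14], with replicate 1 of Thor[2];Lsp2[A10] far above the rest. Without Thor[2];Lsp2[A10] replicate 3 it was 0.81 with an adjusted p of 0.0472, and 4 cytosolic genes were called, where 12.3% of all genes were.

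Driving Lsp2 or Rheb with Lpp[TS] moved no synthetase past the test. For Lpp[TS]>Lsp2 against Lpp[TS]>w1118, 0 of 33 RNAs were called (edgeR; 0 unadjusted, 0 with DESeq2), where 0.0166% of 12030 genes were. The medians were −0.033 in the cytosolic and 0.15 in the mitochondrial set, beside 0.08 over all genes. CysRS-m (FBgn0033900, on 2R at 14159096 to 14161262, minus strand) had the smallest p, at 17.5 and 16.3 CPM in Lpp[TS]>Lsp2 and 14.2 and 14.5 CPM in Lpp[TS]>w1118 (0.24 ± 0.13, adjusted p 0.908). The lines did not overlap, but 2 libraries stand on each side. Between its 2 libraries Lpp[TS]>Lsp2 varied more than the others: summed cytosolic synthetase RNA was 2423 to 3071 CPM there, against 2597 to 2711 CPM in Lpp[TS]>w1118. Without Lpp[TS]>Lsp2 replicate 1, 9 of 33 genes were called, where 37.2% of all genes were.

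For Lpp[TS]>Rheb against Lpp[TS]>w1118, 0 of 33 RNAs were called (edgeR; 0 unadjusted, 0 with DESeq2), where 1.53% of all genes were. Cytosolic genes lay mostly below 0, 17 of 18, with a median of −0.21, while the mitochondrial median was −0.048 and that of all genes −0.042. The share of all genes below 0 is not given here, and these genes share the same 4 libraries and are not independent. Summed cytosolic synthetase RNA was 2199 to 2210 CPM in Lpp[TS]>Rheb and 2597 to 2711 CPM in Lpp[TS]>w1118. GlyRS (FBgn0027088, on 3L at 15095142 to 15097686, plus strand) stood at 101 and 95.6 CPM in Lpp[TS]>Rheb and 129 and 121 CPM in Lpp[TS]>w1118, without overlap, a difference of −0.35 ± 0.16 (adjusted p 0.428). Fitted on these 4 libraries alone, its difference of −0.33 had an adjusted p of 0.0122, and 4 of 33 genes were called, 3 cytosolic lower and 1 mitochondrial higher. In that fit 25.3% of all genes were called.

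Neither driven line changed the fraction ratios of a synthetase past the threshold. For polysome to total, 0 of 33 were called with Lsp2 and 0 with Rheb (edgeR; 0 and 0 unadjusted, 0 with DESeq2 in both), where 0.0% and 0.0% of 12796 genes were. IleRS-m (FBgn0036569, on 3L at 16100280 to 16103482, plus strand) had log2 ratios of −0.10 and −0.44 in Lpp[TS]>Lsp2 and 0.22 and 0.50 in Lpp[TS]>w1118 (−0.64 ± 0.30, adjusted p 0.862). TyrRS had −0.0085 and 0.35 in Lpp[TS]>Rheb and −0.14 and −0.056 in Lpp[TS]>w1118 (0.27 ± 0.18, adjusted p 1.0), and this difference came to 0.45 when replicate 1 of Lpp[TS]>Rheb was left out and 0.019 when replicate 2 was. For polysome to monosome, 0 of 33 were called in either line (edgeR; 0 and 0 unadjusted, 0 with DESeq2; 0.0% of 12524 genes). AlaRS-m (−0.22 ± 0.16 with Lsp2, adjusted p 1.0) and IleRS (−0.26 ± 0.15 with Rheb, adjusted p 1.0) had the smallest p-values. Both lines are compared with the same 2 replicates of Lpp[TS]>w1118.

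The genes that work with the synthetases are given by role. By age 58.2% of all genes were called in total RNA, 28.9% higher and 29.3% lower. The cytosolic phenylalanine enzyme was lower in both subunits at 15 d, with changes of −0.36 ± 0.06 for alpha-PheRS and −0.32 ± 0.05 for beta-PheRS (adjusted p 0.000262 and 0.000149), while Slimp, a mitochondrial protein derived from seryl-tRNA synthetase, rose by 0.43 ± 0.10 (adjusted p 0.00322). The polysome to total ratio of the subunits rose by 0.48 ± 0.13 and 0.75 ± 0.12. Scaffold RNAs gave 0 higher and 2 lower of 3 (0 higher and 0 lower with library totals; AIMP1 −0.24 ± 0.07, AIMP3 −0.29 ± 0.09). Cytosolic elongation factors, which carry charged tRNA to the ribosome and move it along, gave 0 higher and 6 lower of 7, with eEF2 at −0.52 ± 0.07, eEF1gamma at −0.42 ± 0.07 and eEF1alpha1 at −0.45 ± 0.07. Ribosomal protein RNAs gave 1 higher and 74 lower of 82, with a median of −0.54 (1 higher and 66 lower with library totals). Mitochondrial translation factors gave 1 higher and 2 lower of 10 (2 higher and 2 lower with library totals): the elongation factors mEFTu1 (−0.49 ± 0.07) and mEFTu2 (−0.49 ± 0.07) fell, and GatB, a subunit of the amidotransferase that makes glutaminyl-tRNA in mitochondria, rose by 0.28 ± 0.09.

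Enzymes of amino acid synthesis gave 0 higher and 4 lower of 6 at 15 d (0 higher and 2 lower with library totals), led by the folate enzyme Nmdmc (−0.87 ± 0.08) and asparagine synthetase AsnS (−0.44 ± 0.06). Of all genes 28.9% were called higher and 29.3% lower. Amino acid transporters gave 3 higher and 1 lower of 8 (6 higher and 1 lower with library totals), with NAAT1 at 0.83 ± 0.10, Eaat1 at −0.68 ± 0.08 and slif, a cationic amino acid carrier, at 0.24 ± 0.06. Of the kinases that phosphorylate eIF2alpha, Gcn2, which senses uncharged tRNA, rose by 0.30 ± 0.08 and PEK, the sensor of the endoplasmic reticulum, by 0.34 ± 0.08, while eIF2alpha fell by 0.42 (−0.42 ± 0.05). The transcription factor crc gave −0.15 ± 0.08 (adjusted p 0.114) and was not called.

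With Thor[2], alpha-PheRS rose by 0.48 ± 0.06 (adjusted p 6.91e-06), the one called of the 3 genes in its list (1 higher and 1 lower with library totals). Of all genes 76.8% were called in this comparison, 39.6% higher and 37.2% lower, so a call is the usual state. Ribosomal protein RNAs gave 80 higher and 0 lower of 82 (median 1.11), elongation factors 3 higher and 2 lower of 7 (eEF5 1.24 ± 0.10, eEF1beta 0.96 ± 0.08, eEF1delta 0.75 ± 0.10) and mitochondrial translation factors 6 higher and 1 lower of 10 (mEFTu1 0.74 ± 0.06, mEFTs 0.62 ± 0.06, GatA 0.60 ± 0.07; 4 higher and 2 lower with library totals). Amino acid synthesis enzymes gave 6 higher and 0 lower of 6, among them Nmdmc (1.16 ± 0.09) and the aspartate aminotransferases Got2 (0.63 ± 0.07) and Got1 (0.47 ± 0.06). Transporters gave 1 higher and 5 lower of 8 (0 higher and 7 lower with library totals), with gb at −0.63 ± 0.06, mnd at −0.55 ± 0.06 and slif at −0.55 ± 0.07. Gcn2 fell by 1.31 (−1.31 ± 0.10) and PEK by 1.30 (−1.30 ± 0.08), eIF2alpha rose by 0.44 ± 0.07, and crc gave 0.10 ± 0.11 (adjusted p 0.419) and was not called. With the length trend removed Gcn2 gave −0.47, PEK −0.57, eIF2alpha 0.10 (adjusted p 0.102, not called) and crc 0.53 (adjusted p 6.24e-05, called), and the list of 5 gave 1 higher and 3 lower, against 1 higher and 2 lower without the offset. With the length trend removed ribosomal proteins gave 57 higher and 13 lower of 82, elongation factors 4 higher and 1 lower, mitochondrial factors 4 higher and 4 lower, synthesis enzymes 5 higher and 0 lower, transporters 2 higher and 4 lower and the PheRS list 1 higher and 2 lower. Of all genes 65.7% were called with that offset.

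In Lpp[TS]>Rheb 3 of 6 amino acid synthesis enzymes rose and 0 fell, while no synthetase was called. Of all genes 1.53% were called. The serine pathway genes aay and Shmt rose by 1.85 ± 0.15 and 1.24 ± 0.13, and Nmdmc by 2.43 ± 0.29 (adjusted p 0.0139, 0.0199 and 0.0246). Their list summed to 1695 to 1777 CPM in Lpp[TS]>Rheb, against 982 to 984 CPM in Lpp[TS]>w1118. In the same comparison crc gave −0.081 ± 0.19 and Gcn2 −0.40 ± 0.27, neither called, and 4 of 9 eggshell markers fell.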

How the data were processed

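Total RNA, monosome and polysome libraries of whole female flies were sequenced as poly(A)-selected, paired reads. The authors deposited raw gene counts in 3 tables, 1 for the Lpp[TS] lines and 1 for the allele lines at each age, and every count column matched 1 sample (0 columns without a sample). The submitters' processing notes name fastp 0.23.2, Bowtie2 2.3.4.1, STAR 2.2.1, featureCounts 1.6.0, R 4.2.0 and the build BDGP6. Strand and multi-mapping settings are not given in the sources used here. Gene positions and exon lengths are from the BDGP6.54 annotation.

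Counts were tested in R 4.3.3 with edgeR 4.0.16 (filterByExpr, TMM factors, robust quasi-likelihood fit on a mean per genotype, age and fraction). Fraction ratios are interaction terms of that model. In these main fits the fractions of 1 ground sample are not paired, and only the replicate block pairs them. P-values were adjusted over all genes tested, with a threshold of 0.05, in 13 comparisons of each of 3 measures. SE is the log2 change over the root of the F value. TMM-scaled CPM and the log2 ratios made from them were computed by library with edgeR. Other per-library values were computed in Python 3.11.15 (pandas 2.3.3), and figures were drawn with matplotlib 3.10.9. Alternatives were RLE factors, library totals, no filter on low counts, DESeq2 1.42.0, a replicate block, only the groups compared (RNA) and leaving out each replicate. An offset for a length trend (a lowess curve, over exon length, of each library's log2 deviation from the mean library) was added after seeing the data.

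Within a line the 3 fractions of 1 replicate come from 1 ground sample per the labels' protocol, and the replicate block of the ratios rests on that. Deviations of same-numbered fractions correlated at 0.10 to 0.87 in the Lpp[TS] lines, −0.28 to 0.55 in the allele lines at 15 d and −0.16 to 0.68 at 2 to 3 d. Counting error is small beside the spread between replicates, since chi-square per degree of freedom over genes was 6.85 to 143 in the 63 replicate pairs. Values by library are given for up to 3 cytosolic and 3 mitochondrial members (2 and 2 for ratios) with the smallest adjusted p past the threshold in comparisons over both alleles, between alleles and between Lpp[TS] lines, or else for the member with the smallest p, and from each other list up to 3 genes are named the same way. The members and lists were chosen with earlier results of these data known.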

Additional observations from a re-analysis of the deposited data

How the results depend on the processing

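Of 40 values of named genes none changed sign under any alternative run, 609 of their recomputed values kept their side of the threshold, 9 newly passed it and 3 no longer did. These 40 values were picked for the smallest p-values in the main fits, so the counts do not describe the other members. The main RNA fits do not pair the lines by replicate number. Deviations of same-numbered total RNA libraries of different lines correlated at −0.30 to −0.053 in the Lpp[TS] lines. In the allele lines at 15 d they correlated at −0.35 to 0.345 (7 of 18 over 0.1). At 2 to 3 d they correlated at −0.20 to 0.44, with a median of 0.42 (2 of 3 over 0.1). With the replicate block the RNA count for age in Lsp2[B14] was 7 in place of 11. For the ratios the replicate block gave 1 call for Lsp2[A10] against Lsp2[B14] at 2 to 3 d (polysome to total), 1 for Thor[2] over both alleles, 1 for Thor[2] in Lsp2[A10], 5 for age in Lsp2[A10] and 14 for age in Lsp2[B14] (polysome to monosome), and no other count moved by over 1.5 times. DESeq2 gave 1, 1, 1 and 4 for the first 4 of these. Without the filter on low counts the age counts for polysome to monosome were 0 in Lsp2[A10] and 5 in Lsp2[B14]. Fitted on the groups alone, Lpp[TS]>Rheb gave 4 RNA calls. With the length trend removed, RNA counts were 13 for Thor[2] in Lsp2[B14], 1 for its difference between alleles and 1 for the alleles with Thor[2], and polysome to monosome gave 0 for age in Lsp2[A10]. The cause was not tested in any of these cases. Except where a share of all genes is printed beside it, a count under an alternative stands without that background. Leaving out 1 replicate gave, for RNA, 22 to 24 calls for Thor[2] over both alleles, 17 to 24 for age over both, 10 to 15 for age in Lsp2[A10], 5 to 11 in Lsp2[B14] and 0 to 9 for Lpp[TS]>Lsp2. For polysome to total it gave 18 to 21 (Thor[2]), 11 to 15 (Thor[2] in Lsp2[B14]), 10 to 13 (age), 4 to 11 (age in Lsp2[A10]), 4 to 7 (age in Lsp2[B14]) and 0 to 1 (alleles at 2 to 3 d). For polysome to monosome it gave 0 to 1 (Thor[2]), 0 to 2 (Thor[2] in Lsp2[A10]), 9 to 15 (age), 0 to 2 (age in Lsp2[A10]), 3 to 11 (age in Lsp2[B14]) and 0 to 4 (alleles with Thor[2]). Where this leaves 1 library in an arm, that library is assumed to vary like the others. Library totals moved several named values by over 1.5 times: by age TyrRS to −0.23, ThrRS to −0.21, TrpRS-m to 0.39 and LeuRS-m to 0.38 in RNA, and GlnRS to 0.31 and PheRS-m to 0.28 in polysome to monosome. CysRS-m in Lpp[TS]>Lsp2 was 0.16 without replicate 1 of that line, and IleRS polysome to monosome in Lpp[TS]>Rheb was −0.13 without replicate 2. With 2 replicates in each Lpp[TS] line a count of 0 does not show that levels were alike.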

Other observations

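The partner genes of the synthetases also shifted between fractions. By age 46.7% of all genes were called in polysome to total, 28.8% higher and 17.9% lower. At 15 d against 2 to 3 d the polysome to total ratio rose for AIMP3 (0.56 ± 0.13) and AIMP2 (0.45 ± 0.18), the scaffold proteins of the synthetase complex, with 2 higher and 0 lower of 3 (1 higher and 1 lower with library totals and 0 higher and 1 lower with the length trend removed). Amino acid synthesis enzymes gave 4 higher and 0 lower of 6, transporters 0 higher and 3 lower of 8 and ribosomal proteins 33 higher and 1 lower of 83, the last turning to 11 higher and 25 lower with the length trend removed. With Thor[2] the same ratio fell for alpha-PheRS by 0.86 (−0.86 ± 0.16) and AIMP3 by 0.86 (−0.86 ± 0.13). Here 56.2% of all genes were called, 25.9% higher and 30.3% lower (46.3% called with the length trend removed). Synthesis enzymes gave 0 higher and 6 lower of 6, transporters 4 higher and 0 lower of 8 and ribosomal proteins 0 higher and 48 lower of 83, and with the length trend removed 0 higher and 4 lower, 3 higher and 3 lower and 40 higher and 13 lower.

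Over the lines, the median cytosolic synthetase had a polysome to total ratio, relative to the median gene, of 0.23 ± 0.14 (A10 allele) and 0.13 ± 0.13 (B14 allele) at 15 d, against −0.16 ± 0.19 and −0.14 ± 0.06 at 2 to 3 d (log2, SD, n = 3). The median mitochondrial synthetase had 0.15 ± 0.17 and 0.24 ± 0.09 at 15 d, against 0.12 ± 0.09 and 0.20 ± 0.14 at 2 to 3 d. With Thor[2] the mitochondrial set stood at 0.42 ± 0.10 with the A10 allele and 0.39 ± 0.22 with the B14 allele, and the cytosolic set at 0.033 ± 0.04 and 0.15 ± 0.16.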
